A study of Homo sapiens with 12 samples.

Results

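The comparison described here was between WI-38 fibroblasts after 20 days and after 1 day of culture without TGF-β. Its members were the libraries labelled day 1 and day 20 without TGF-β, 6 of the 12 libraries of the series, 3 flasks at each time. The other 6 libraries came from flasks given TGF-β (D1+ TGF-β and D20+ TGF-β) and are used below to show where the change over time differed between the arms. The D20+ TGF-β flasks were seeded from a single treated flask. Differences between the arms at D20 therefore cannot be told apart from differences between the parent flasks. WI-38 is a line of normal human lung fibroblasts, grown here in low-glucose medium with serum. The RNA of each flask was read with a directional, paired-end protocol on 4 lanes, whose counts were added up for each library.

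The D1 flasks were at passages 2 to 3 and confluent, with fresh medium the day before RNA was taken. The D20 flasks were at passages 5 to 6. They had all been seeded from a single untreated flask, had their medium changed regularly and were timed to be almost confluent on the day of harvest. Neither group received TGF-β or any other agent. Day, passage, the shared parent flask, cell density and the age of the medium therefore moved together and cannot be told apart in these libraries. The flasks are of 1 line, and the D20 flasks are sister flasks from 1 parent. The p-values and SDs therefore cover the spread between flasks, and not between donors or between independent cultures grown to D20. RNA came from whole flasks, where fewer cells making a transcript and less transcript per cell cannot be told apart.

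Fibroblasts make and remodel the collagen-rich matrix of the lung, and in culture they divide until they are crowded, run short of growth factors or reach the limit of their replicative life. A dividing cell copies its genome with the MCM helicase and its partners and separates the copies with the kinetochore and spindle. The genes of those steps are switched together by E2F factors, the RB family and the DREAM and MuvB complexes, which bind promoters through E2F sites and through the cell cycle genes homology region (CHR).

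The 6 libraries held between 10555693 and 17164119 counts. Values are given as cpm, the counts-per-million unit, adjusted by edgeR's TMM composition factors, and cpm levels are compared between flasks and not between genes. Of 20434 genes with a count, 9490 reached 10 cpm in at least 6 of the 12 libraries and were tested with edgeR's quasi-likelihood fit over all 12 libraries. A gene was called, and is said to have risen or fallen, at a Benjamini-Hochberg adjusted p under 0.01. Each fold change below is D20 over D1, on the log2 scale unless it is written as a fold. The filter can keep a gene through its higher group alone, so counts over the tested members of a list are descriptions, and counts with no filter are given for the lists described first. D1 replicate 2 stood apart from the other D1 flasks. Of the tested genes, 716 (7.54%) in it lay over 0.5 log2 units from the mean of D1 replicates 1 and 3, while 168 genes differed that much between those 2 flasks and between 5 and 37 genes in each D20 flask. Many results that rest on this flask are given with and without it, but not all.

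Between D1 and D20, 3457 genes (36.4% of those tested) changed, 1789 upward (18.9%) and 1668 downward (17.6%). The counts in each list below are to be read beside these shares. The 3 D20 flasks did not overlap with the 3 D1 flasks in 5277 genes (55.6%), 2793 with higher values (29.4%) and 2484 with lower values (26.2%). Called changes over 1 log2 unit numbered 298 upward and 341 downward. The balance of directions depended on the scaling. Without composition factors, 1389 genes rose and 2112 fell, with the median of all genes shifted by −0.07 log2 units. Without D1 replicate 2, 1956 genes rose and 2047 fell, and 3191 of the 3457 calls remained in the same direction. The plot of the changes by gene list gives the picture in outline, with genes of division at one end and interferon-stimulated genes at the other.

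**Figure D1:**
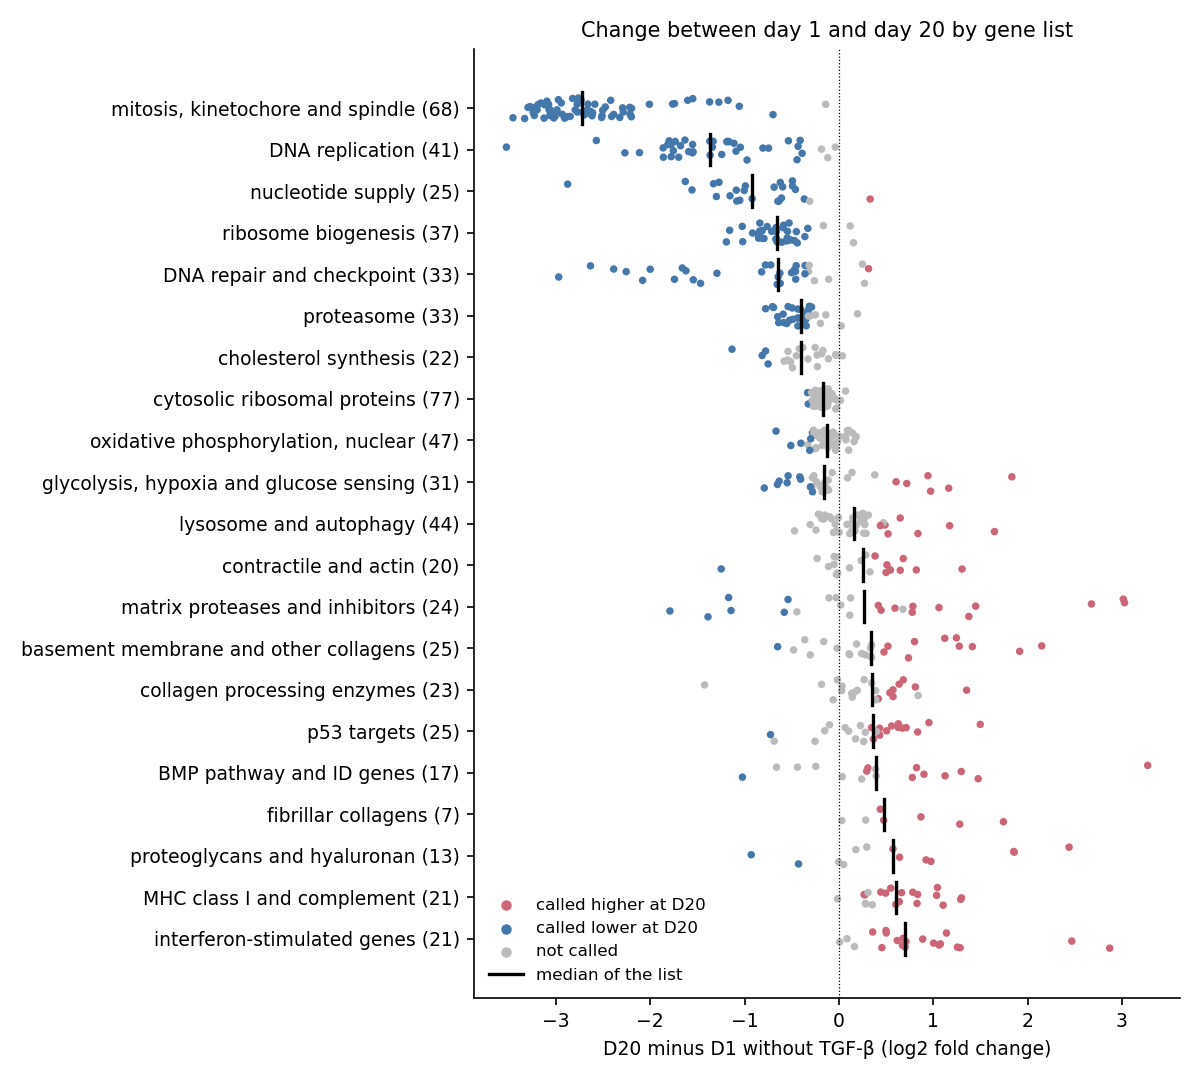
Change between D1 and D20 without TGF-β (log2 fold change, horizontal axis) of each tested gene in 21 gene lists. Each point is 1 gene, red where it rose, blue where it fell and grey where it was not called, the black bar is the list's median and the number beside each name is the genes tested. The medians run from −2.73 for mitosis at the top to 0.70 for the interferon-stimulated genes at the bottom.

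Genes of cell division fell nearly as a body. Of 68 tested genes of mitosis, kinetochore and spindle, 67 fell and 0 rose, with a median of −2.73 against 0.01 over all tested genes. CDC25B, a phosphatase that activates CDK1, was the member that was not called. All 72 listed genes had counts, and with no expression filter 71 fell. The count of falls was 67 with each library left out in turn. MKI67 (chr10:129894923-129924687 in GRCh37), which encodes the Ki-67 antigen of cycling cells, measured 167, 245 and 169 cpm in the D1 flasks and 25.8, 19.8 and 19.9 cpm in the D20 flasks. The mean went from 194 ± 44.3 to 21.8 ± 3.44 cpm (SD, n = 3), 8.93-fold lower (log2 fold change −3.16, SE 0.26, edgeR adjusted p = 5.73e-07). CDK1 (chr10:62538089-62554610), the kinase that drives entry into mitosis, measured 44.7, 82.7 and 63.0 cpm at D1 and 7.08, 6.75 and 7.10 cpm at D20 (log2 fold change −3.19, SE 0.21, edgeR adjusted p = 1.4e-07). In both genes D1 replicate 2 had the highest level, and all D20 flasks lay far below all D1 flasks.

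Each step of division was represented among the falls. At the centromere, HJURP (chr2:234742062-234763212), the chaperone that loads the centromeric histone CENP-A, measured 43.8, 51.7 and 48.9 cpm at D1 and 5.33, 4.48 and 3.61 cpm at D20 (log2 fold change −3.45, SE 0.19, edgeR adjusted p = 3.23e-08). It overlaps MROH2A on the opposite strand, and reads of the pair may not be separated. The microtubule-coupling subunits SKA1 and SKA3 changed by −3.27 and −3.23 on the log2 scale. AURKB, the kinase of the chromosomal passenger complex, fell by 3.33 on the log2 scale, and the spindle checkpoint kinase TTK fell by 3.22 on that scale. CDC20 (chr1:43824652-43828874), which activates the anaphase-promoting complex, measured 70.1, 87.2 and 70.3 cpm at D1 and 8.15, 9.33 and 7.41 cpm at D20 (log2 fold change −3.20, SE 0.16, edgeR adjusted p = 2.51e-08). The kinesin KIF18B went from 16.2, 18.4 and 15.8 cpm to 1.94, 1.29 and 1.90 cpm, and PLK1 fell by 3.08 on the log2 scale.

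Promoters of some of these genes are shown as a description of their sequence. CHR letters are what the DREAM and MuvB complexes are known to bind. Binding was not measured, and a part of these complexes in the falls was not tested. Windows of 300 bases, from 250 before to 50 after the gene start, were taken from the RefSeq table of GRCh38.p14 and placed on GRCh37 by exact match. The 6 windows below belong to the members with the largest falls that hold CHR letters, TTTGAA or TTCGAA on either strand. Capitals mark those letters, which read reversed and complemented where they lie on the other strand.
HJURP, chr2:234763132-234763431, minus strand: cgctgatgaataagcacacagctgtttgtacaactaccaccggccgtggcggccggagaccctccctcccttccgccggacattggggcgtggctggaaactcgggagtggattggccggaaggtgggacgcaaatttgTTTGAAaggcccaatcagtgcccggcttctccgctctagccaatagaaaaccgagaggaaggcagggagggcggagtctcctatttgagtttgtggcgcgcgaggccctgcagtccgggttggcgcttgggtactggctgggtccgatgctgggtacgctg
KIF18B, chr17:43025092-43025391, minus strand: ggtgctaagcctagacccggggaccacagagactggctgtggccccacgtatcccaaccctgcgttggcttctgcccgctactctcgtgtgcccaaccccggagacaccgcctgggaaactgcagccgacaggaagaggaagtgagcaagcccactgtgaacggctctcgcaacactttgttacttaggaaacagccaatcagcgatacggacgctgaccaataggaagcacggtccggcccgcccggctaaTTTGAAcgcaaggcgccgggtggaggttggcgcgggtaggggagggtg
SKA1, chr18:47901166-47901465, plus strand: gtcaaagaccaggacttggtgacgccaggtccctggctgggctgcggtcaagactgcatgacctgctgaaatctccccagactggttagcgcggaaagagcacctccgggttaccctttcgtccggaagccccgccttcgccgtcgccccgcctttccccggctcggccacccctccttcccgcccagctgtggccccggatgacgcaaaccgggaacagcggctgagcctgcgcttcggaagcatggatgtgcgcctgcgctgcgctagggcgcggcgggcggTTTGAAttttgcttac
SKA3, chr13:21750642-21750941, minus strand: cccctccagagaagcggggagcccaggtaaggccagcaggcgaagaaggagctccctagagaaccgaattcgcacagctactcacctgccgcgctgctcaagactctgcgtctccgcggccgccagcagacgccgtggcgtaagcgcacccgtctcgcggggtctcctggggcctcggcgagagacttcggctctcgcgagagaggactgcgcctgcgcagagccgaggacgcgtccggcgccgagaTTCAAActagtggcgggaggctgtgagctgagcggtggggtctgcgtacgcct
CDC20, chr1:43824402-43824701, plus strand: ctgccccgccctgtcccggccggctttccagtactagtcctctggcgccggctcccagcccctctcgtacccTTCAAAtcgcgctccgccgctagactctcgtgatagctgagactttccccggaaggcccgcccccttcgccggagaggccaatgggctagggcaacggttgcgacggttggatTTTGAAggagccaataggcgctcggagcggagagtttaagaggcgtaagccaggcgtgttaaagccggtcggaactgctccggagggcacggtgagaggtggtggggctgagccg
CDK1, chr10:62537839-62538138, plus strand: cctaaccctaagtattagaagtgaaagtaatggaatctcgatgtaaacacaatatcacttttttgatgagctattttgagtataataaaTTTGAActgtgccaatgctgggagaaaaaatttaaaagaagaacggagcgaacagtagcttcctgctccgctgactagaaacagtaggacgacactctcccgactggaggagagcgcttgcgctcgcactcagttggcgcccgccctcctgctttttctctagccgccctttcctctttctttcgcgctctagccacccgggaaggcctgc
In CDC20 the letters occur at −178 and −65 bases from the start, in HJURP at −111, in CDK1 at −161 and in SKA1 at 35.

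Of 59 mitosis genes with a promoter in the table, 46 (78.0%) held CHR letters, against 864 of 7838 tested genes (11%) and 16.6% of all 27305 promoters. The letters CCAAT, the site of NF-Y, which can share at most an end base with the other letters searched, were found in 72.9% of the mitosis promoters and in 36.9% of those of the tested genes. In promoters of the DNA replication list CCAAT was found in 20 of 36 (55.6%). CHR letters were in 2 of 36 (5.56%), while the E2F-like letters GCGGGAA were in 14 of 36 (38.9%), against 10.8% of tested genes and 15.3% of mitosis genes. Both strands were searched for all letters. A match is a stretch of letters in the window and not a measured binding site. Over all called genes with a promoter the contrasts were smaller. CHR letters were in 17.0% of those that fell and 10.8% of those that rose, and the E2F-like letters in 14.9% and 8.03%. The lists were chosen by function, so their shares describe the lists and not the genes that changed.

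DNA replication genes fell less steeply. Of 41 tested, 38 fell and 0 rose, with a median of −1.36. With no expression filter, 48 of the 52 listed genes fell. MCM10 (chr10:13203558-13253110), which helps start the replication fork, had the largest fall of any tested gene in the list, from 12.9, 15.8 and 16.7 cpm to 1.16, 1.75 and 1.04 cpm (log2 fold change −3.52, SE 0.30, edgeR adjusted p = 6.94e-07). The licensing factor CDC6 changed by −2.57 on the log2 scale and the checkpoint adaptor CLSPN by −2.97. Subunits of the MCM helicase fell, with log2 fold changes of −1.81 (MCM2), −1.55 (MCM3), −1.24 (MCM4), −1.73 (MCM5) and −1.63 (MCM7). MCM7 measured 105, 113 and 101 cpm at D1 and 36.1, 35.4 and 32.0 cpm at D20, without overlap. E2F1, an activator of these genes, changed by −1.54 and the maintenance DNA methyltransferase DNMT1 by −1.11 on the log2 scale.

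Enzymes that supply deoxynucleotides fell with them. In the nucleotide supply list 23 of 25 tested genes fell, 1 rose and the median was −0.92. RRM2, the ribonucleotide reductase subunit made in S phase, went from 143, 199 and 179 cpm to 31.2, 21.9 and 18.7 cpm (log2 fold change −2.87, SE 0.21, edgeR adjusted p = 3.1e-07). RRM2B, the alternative subunit that p53 induces, was the member that rose, from 140, 157 and 164 cpm to 192, 196 and 192 cpm (log2 fold change 0.33, SE 0.07, edgeR adjusted p = 0.00172). Its call was lost without the gene filter and with only the 6 untreated libraries, the settings that left 0 members called upward. Thymidylate synthase, TYMS, fell by 1.56 on the log2 scale. In the DNA repair and checkpoint list 26 of 33 tested genes fell and 1 rose, RAD50. The count of risers was 0 when D1 replicate 1 or 3, D1+ TGF-β replicate 2 or any D20 flask was left out and 2 without D1 replicate 2. The falls included the Fanconi anaemia genes FANCD2 (log2 fold change −2.39) and FANCA (−2.08) and the nuclease EXO1 (−2.25).

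**Figure D2:**
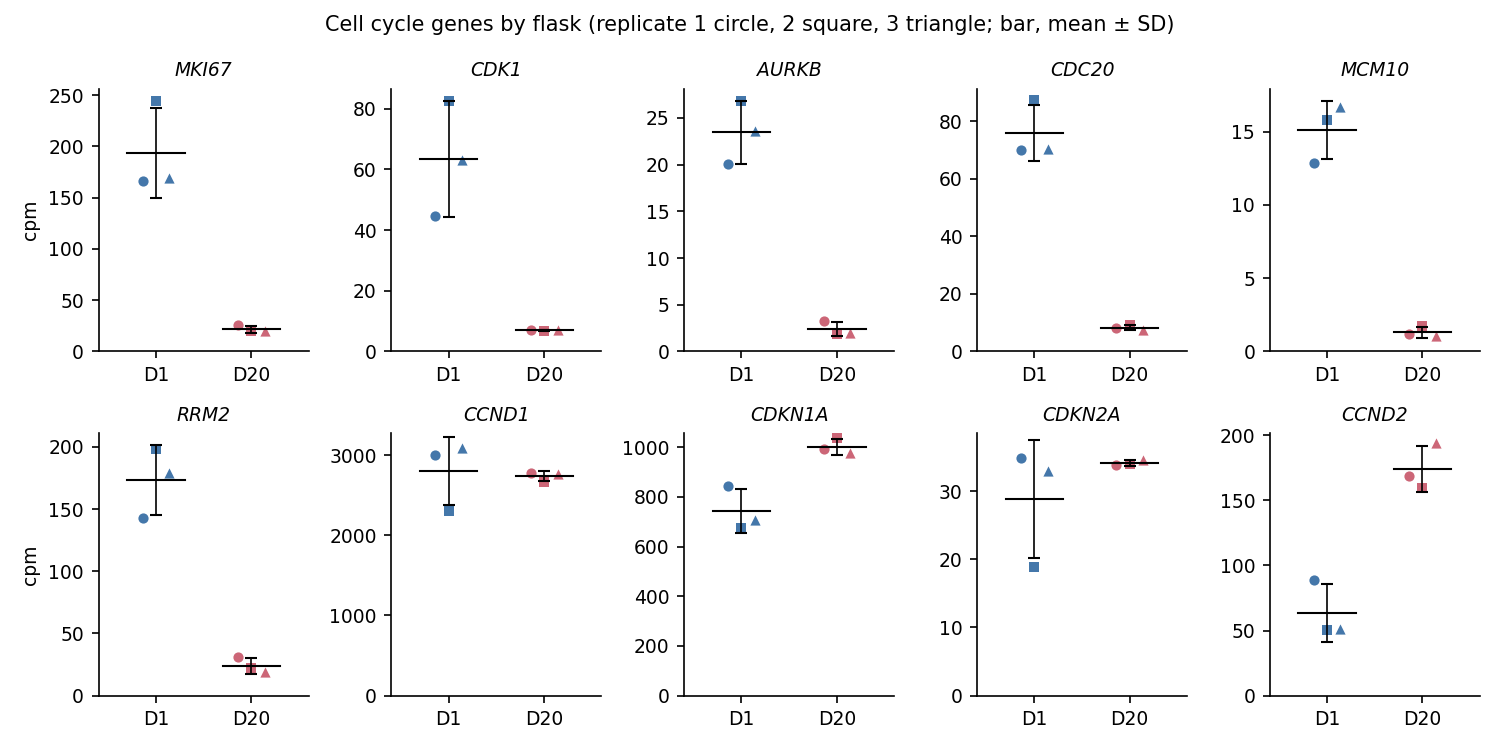
Levels in cpm (vertical axes, linear and starting at 0) of 10 cell cycle genes in the 3 D1 (blue) and the 3 D20 (red) flasks without TGF-β, 1 point per flask with the marker shape giving the replicate, and bars for mean ± SD. MKI67, CDK1, AURKB, CDC20, MCM10 and RRM2 lie lower in every D20 flask than in any D1 flask, CCND1 and CDKN2A overlap, and CDKN1A and CCND2 lie higher at D20.

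Of 21 tested genes in the list of CDK inhibitors, D cyclins, CDKs and RB, E2F and MuvB genes, 6 rose and 6 fell, and the inhibitors among them moved differently from each other. CDKN1A, the p53 target p21, measured 842, 674 and 708 cpm at D1 and 991, 1037 and 975 cpm at D20 (log2 fold change 0.43, SE 0.10, edgeR adjusted p = 0.00253), without overlap, and its call was lost without D1 replicate 3 (lowest log2 fold change under any alternative 0.35) and without D20 replicate 2. CDKN2A, whose products p16 and ARF mark senescent fibroblasts, measured 34.8, 18.9 and 32.9 cpm at D1 and 33.9, 34.0 and 34.6 cpm at D20 and was not called (log2 fold change 0.25, adjusted p = 0.209), and without D1 replicate 2 the difference was 0.00. CDKN1B, p27, rose from 22.6, 29.4 and 26.9 cpm to 33.3, 34.0 and 37.1 cpm (log2 fold change 0.40, SE 0.10, edgeR adjusted p = 0.0051), and by 0.48 without D1 replicate 2. CDKN2B, p15, was not called (log2 fold change −0.33). Outside the main filter, CDKN1C, p57, rose by 1.15 on the log2 scale. CDKN2C, p18, also outside it, fell from 12.8, 18.4 and 14.6 cpm to 3.98, 2.43 and 2.88 cpm.

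Among the kinases and cyclins of G1, CCND2 rose from 88.8, 50.3 and 51.3 cpm to 169, 159 and 194 cpm (log2 fold change 1.46, SE 0.19, edgeR adjusted p = 2.54e-05). CDK6 rose by 0.94 on the log2 scale, while CDK4 changed by −0.48 and CDK2 by −1.33. CCND1, cyclin D1, measured 3006, 2307 and 3083 cpm at D1 and 2780, 2667 and 2765 cpm at D20, and the groups overlapped (log2 fold change −0.03, adjusted p = 0.849). Within the RB family, RBL1 (p107) fell by 1.46 and RBL2 (p130), the pocket protein of resting cells, rose by 0.52 on the log2 scale. CCNG2, a cyclin of cells leaving the cycle, rose by 1.14.

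Of 25 tested p53 targets, 13 rose and 1 fell, with a median of 0.37, and 2 fell without D1 replicate 2 or 3 or D20+ TGF-β replicate 1 or 3. MDM2, which degrades p53, measured 261, 265 and 250 cpm at D1 and 374, 362 and 368 cpm at D20 (log2 fold change 0.51, SE 0.06, edgeR adjusted p = 1.52e-05). TP53INP1 had the largest rise in the list, from 72.4, 81.6 and 66.3 cpm to 196, 211 and 216 cpm (log2 fold change 1.50, SE 0.09, edgeR adjusted p = 8.16e-08). SESN1, ZMAT3 and BTG2 rose by 0.63, 0.71 and 0.83 on the log2 scale, and the nuclease AEN fell by 0.72. BAX and GADD45A, also p53 targets, were not called.

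The secreted factors often measured in senescent cells split in direction. Of 15 tested, 4 rose and 4 fell. MMP1, interstitial collagenase, measured 431, 801 and 573 cpm at D1 and 286, 223 and 182 cpm at D20 (log2 fold change −1.39, SE 0.22, edgeR adjusted p = 0.00016). STC1, stanniocalcin, stood at 1199 cpm in D1 replicate 2 against 313 and 378 cpm in the other D1 flasks and at 180, 175 and 147 cpm at D20 (log2 fold change −1.92, or −1.07 without that flask), a call lost without D20 replicate 3. The risers were IGFBP5 (1176, 809 and 887 cpm against 2752, 2987 and 3557 cpm), IGFBP7 (log2 fold change 1.02), the adhesion molecule ICAM1 (1.41) and hepatocyte growth factor, HGF (1.02). CXCL12, outside the main filter, rose by 1.92.

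Genes for making ribosomes and for degrading proteins fell by smaller amounts and in most members. In the ribosome biogenesis list 34 of 37 tested genes fell and 0 rose, with a median of −0.66. NOP56, a core protein of the box C/D particles that guide rRNA methylation, measured 118, 101 and 117 cpm at D1 and 54.0, 54.8 and 56.6 cpm at D20 (log2 fold change −1.02, SE 0.07, edgeR adjusted p = 1.75e-07). MRTO4 and DKC1 changed by −1.19 and −1.02, nucleolin (NCL) by −0.60 and nucleophosmin (NPM1) by −0.54 on the log2 scale. In the proteasome list 26 of 33 tested genes fell and 0 rose, with a median of −0.40. PSMD14, the deubiquitinase of the proteasome lid, measured 129, 122 and 158 cpm at D1 and 79.7, 83.7 and 75.2 cpm at D20 (log2 fold change −0.78, SE 0.10, edgeR adjusted p = 1.93e-05). PSME1 and PSME2, subunits of the activator that interferon induces, were at 0.20 and 0.02 and were not called.

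In every matrix list more genes rose than fell, beside 18.9% that rose and 17.6% that fell over all tested genes. The shares that rose ran from 34.8% (collagen processing enzymes) to 71.4% (fibrillar collagens). In the collagen processing list 34.8% were called in either direction, against 36.4% of all tested genes. Of 7 tested fibrillar collagens, 5 rose and 0 fell. COL3A1, the chain of type III collagen, measured 467, 440 and 335 cpm at D1 and 1288, 1429 and 1443 cpm at D20, a 3.35-fold rise (log2 fold change 1.74, SE 0.21, edgeR adjusted p = 1.36e-05). COL5A2 rose by 1.28 and COL5A1 by 0.87. COL1A1 measured 3695, 3025 and 2548 cpm at D1 and 3582, 3752 and 3952 cpm at D20, which overlap (log2 fold change 0.28, adjusted p = 0.0577), and it was called without D1 replicate 1, at 0.43. COL1A2 and COL11A1 were called at 0.47 and 0.44, and the count of risers was 3 when D1 replicate 3, D20 replicate 2 or D20 replicate 3 was left out. Both calls were also lost with only the 6 untreated libraries. The COL11A1 call was lost under 14 alternatives, among them limma-voom, no composition factor and no gene filter.

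The basement membrane and other collagens list had 10 risers and 1 faller among 25 tested genes, with 2 fallers without D1 replicate 2 or 3 or D20+ TGF-β replicate 2 or 3. The risers numbered 14 without D1 replicate 2. LAMB1, a laminin chain, went from 597, 729 and 488 cpm to 1277, 1305 and 1366 cpm. COL14A1, which coats collagen fibrils, went from 8.59, 4.85 and 4.26 cpm to 21.7, 29.9 and 26 cpm (log2 fold change 2.15), COL4A5 and COL4A6 rose by 1.41 and 1.92 on the log2 scale, and LAMA1 fell by 0.65. Among enzymes that modify and crosslink collagen, 8 of 23 rose (11 without D1 replicate 2) and 0 fell (1 without D1 replicate 3). The risers included LOXL2 (0.64), LOXL4 (0.81) and the prolyl hydroxylases P4HA1 (0.54) and P3H2 (1.35). In the elastic fibre and matricellular list 9 of 24 rose and 2 fell. FBN2, fibrillin-2, went from 214, 182 and 168 cpm to 478, 520 and 570 cpm, and EFEMP1 rose by 1.47. TNC and POSTN, matricellular proteins of wounds, were not called.

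Of 13 tested proteoglycans and hyaluronan genes, 7 rose and 2 fell, with a median of 0.57, and 1 fell rather than 2 when any D20 flask or D1 replicate 1 or 3 was left out. DCN, decorin, which binds collagen and TGF-β, measured 306, 198 and 325 cpm at D1 and 879, 1005 and 1122 cpm at D20, a 3.63-fold rise (log2 fold change 1.86, SE 0.15, edgeR adjusted p = 6.46e-07). LUM (chr12:91496406-91505271), lumican, which spaces collagen fibrils, measured 73.8, 33.9 and 72.3 cpm at D1 and 275, 351 and 346 cpm at D20, a 5.42-fold rise (log2 fold change 2.44, SE 0.28, edgeR adjusted p = 1.18e-05). D1 replicate 2 was the lowest flask for both. PODN rose by 1.85, and syndecan-1, SDC1, fell by 0.93. The hyaluronan synthase HAS2, outside the main filter, fell by 2.22.

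Proteases of the ADAMTS family were among the largest rises of all. ADAMTS5, which cleaves aggrecan and versican, went from 7.82, 13.3 and 4.68 cpm to 71.6, 68.3 and 75.3 cpm, 8.15-fold (log2 fold change 3.03, SE 0.34, edgeR adjusted p = 1.01e-05). ADAMTS19 went from 44.2, 26.4 and 34.0 cpm to 268, 282 and 290 cpm (log2 fold change 3.01, SE 0.18, edgeR adjusted p = 8.66e-08), and ADAMTS9 from 8.16, 11.3 and 5.28 cpm to 53.3, 53.5 and 53.9 cpm. None of the 3 had a D20 flask near the D1 range. ADAMTS8 and ADAMTS15, outside the main filter, rose by 3.90 and 2.92 on the log2 scale. The ADAMTS-like gene ADAMTSL1, a relative of these proteases, fell by 1.79. That call was lost when D1 replicate 1 or 3 or any D20 flask was left out (range over the alternatives −2.21 to −1.50). In the whole list of matrix proteases and inhibitors, 11 of 24 rose and 6 fell. The inhibitors TIMP3 and TIMP1 were at 0.78 and −0.58, both called, and MMP2, MMP14 and TIMP2 were not called.

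**Figure D3:**
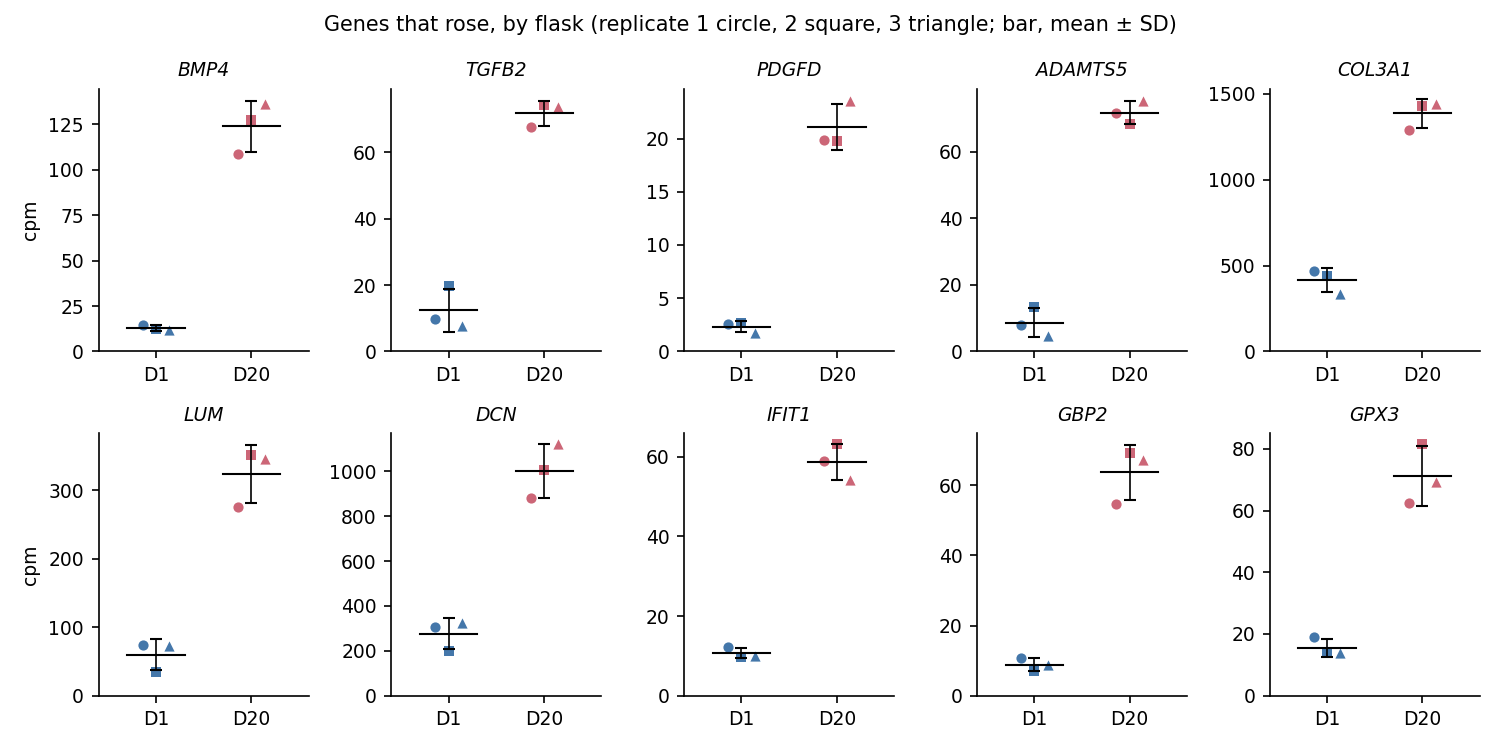
Levels in cpm (vertical axes, linear and starting at 0) of 10 genes that rose between D1 and D20, in the 3 D1 (blue) and the 3 D20 (red) flasks without TGF-β, 1 point per flask with the marker shape giving the replicate, and bars for mean ± SD. In each of BMP4, TGFB2, PDGFD, ADAMTS5, COL3A1, LUM, DCN, IFIT1, GBP2 and GPX3 every D20 flask lies above every D1 flask.

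BMP4 (chr14:54416454-54425479), a morphogen of lung mesenchyme, had the largest rise of all tested genes. It measured 14.6, 12.4 and 11.7 cpm at D1 and 109, 127 and 136 cpm at D20, from 12.9 ± 1.54 to 124 ± 14.1 cpm (SD, n = 3), 9.66-fold (log2 fold change 3.27, SE 0.22, edgeR adjusted p = 1.4e-07). Of 17 tested genes of the BMP pathway, 9 rose and 1 fell, with a median of 0.39. Without D1 replicate 2 the median was 0.96, with 10 risers and 2 fallers, and 2 also fell without D20+ TGF-β replicate 3. The receptors BMPR2 and ACVRL1 rose by 0.82 and 0.78, the pseudoreceptor BAMBI by 1.30 and the target MSX2 by 1.13 on the log2 scale. GREM1, a secreted antagonist of BMP4, fell from 587, 1065 and 650 cpm to 318, 376 and 439 cpm.

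The ID genes, direct targets of BMP receptors, turned on D1 replicate 2. ID3 measured 11.9, 87.5 and 12.6 cpm at D1 and 29.5, 36.4 and 30.6 cpm at D20. With all flasks it was not called (log2 fold change −0.24, adjusted p = 0.749), and without D1 replicate 2 it was higher at D20 (log2 fold change 1.37, edgeR adjusted p = 0.00302). ID1 stood at 62.1 cpm in that flask against 16.2 and 16.3 cpm in the other D1 flasks and 23.4, 25.9 and 21.7 cpm at D20, and BMP2 at 83.0 cpm against 28.4 and 25.8 cpm and 59.1, 64.6 and 58.9 cpm. ID2 was called at 0.90, a call lost when D1 replicate 1 or 3 or any D20 flask was left out (range 0.67 to 1.38).

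TGFB2 (chr1:218518678-218617961), TGF-β2, rose from 9.62, 19.7 and 7.75 cpm to 67.5, 74.4 and 73.6 cpm (log2 fold change 2.51, SE 0.23, edgeR adjusted p = 1.33e-06). The receptor TGFBR2 rose from 345, 330 and 360 cpm to 497, 525 and 522 cpm. TGFB1 was not called. Of 22 tested TGF-β ligands, receptors and SMADs, 5 rose (22.7%) and 1 fell (4.55%), against 18.9% and 17.6% of all tested genes. The share called in either direction, 27.3%, was under the 36.4% of all tested genes. The count of risers moved with single libraries, to 8 without D1 replicate 2 and to 3 without any one of the D20 flasks. Without composition factors 3 rose and 3 fell.

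Growth factor genes moved both ways, 9 up and 10 down of 31 tested, or 13 up and 10 down without D1 replicate 2. PDGFD (chr11:103777917-104035107), a ligand of the PDGF β-receptor, rose from 2.58, 2.66 and 1.70 cpm to 19.9, 19.8 and 23.6 cpm, 9.03-fold (log2 fold change 3.17, SE 0.22, edgeR adjusted p = 1.76e-07). The receptor PDGFRA went from 378, 451 and 358 cpm to 902, 948 and 999 cpm, and ANGPT1, angiopoietin-1, rose by 1.71 on the log2 scale. HBEGF, an EGF receptor ligand, fell from 10.8, 19.5 and 12.9 cpm to 3.39, 3.19 and 3.30 cpm. FGF5, the ERK feedback inhibitor SPRY2 and the co-receptor NRP1 fell, with log2 fold changes of −1.16, −1.39 and −1.42. FOSL1, an AP-1 subunit that growth factors induce, fell from 180, 140 and 184 cpm to 61.2, 55.3 and 51.1 cpm.

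In the Wnt pathway 9 of 21 tested genes rose and 3 fell. DKK1, a secreted antagonist, went from 32.3, 33.5 and 41.3 cpm to 11.2, 9.03 and 9 cpm. The ligand WNT16 went from 29.5, 38.9 and 37.8 cpm to 79.3, 69.3 and 78.3 cpm, and the receptors LGR4 and FZD4 rose by 1.23 and 1.30 on the log2 scale. WNT2, a ligand of the embryonic lung mesenchyme, and the receptor ROR2, both outside the main filter, rose by 2.76 and 2.81. Of 31 tested transcription factors of lung and other mesenchyme, 12 rose and 3 fell. SOX4 went from 52.1, 68.5 and 42.0 cpm to 161, 193 and 197 cpm, HOXA5 rose by 1.18, and FOXF1 and TBX5, factors of the lung mesenchyme, rose by 0.62 and 0.56. SOX9 fell by 0.56, and TCF21 was not called.

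Interferon-stimulated genes rose in most members. Of 21 tested, 18 rose and 0 fell, with a median of 0.70. With no expression filter 27 of 41 listed genes rose and 1 fell, and without D1 replicate 2 the count was 17 of 21. IFIT1 (chr10:91152303-91166244), which binds viral RNA, measured 12.1, 9.76 and 10 cpm at D1 and 59.0, 63.1 and 54.2 cpm at D20, 5.53-fold higher (log2 fold change 2.47, SE 0.20, edgeR adjusted p = 5.07e-07). It lies opposite LIPA, and the reads of the pair may not be separated. GBP2 (chr1:89571815-89616139), a guanylate-binding protein, went from 10.7, 7.04 and 8.68 cpm to 54.6, 69.2 and 67.2 cpm (log2 fold change 2.87, SE 0.26, edgeR adjusted p = 1.17e-06). The signalling factor IRF9 rose by 0.89 and PARP9 and PARP14 by 1.28 and 1.06 on the log2 scale. ISG15, a ubiquitin-like modifier, was among the 3 members not called, at 20.1, 20.7 and 22.5 cpm against 22.3, 25 and 23.5 cpm. OAS3, outside the main filter, fell from 8.25, 7.37 and 6.98 cpm to 1.94, 4.33 and 3.73 cpm.

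The letters GAAA, any 2 bases and GAAA again, the core of the interferon-stimulated response element bound by the ISGF3 complex that holds IRF9, were found in the promoter windows of 9 of 17 of these genes (52.9%), against 215 of 7838 tested genes (2.74%) and 3.65% of all promoters. Windows of 2 risers, chosen after their values were seen, show the letters in capitals, reversed and complemented where they lie on the other strand.
IFIT1, chr10:91152130-91152429, plus strand: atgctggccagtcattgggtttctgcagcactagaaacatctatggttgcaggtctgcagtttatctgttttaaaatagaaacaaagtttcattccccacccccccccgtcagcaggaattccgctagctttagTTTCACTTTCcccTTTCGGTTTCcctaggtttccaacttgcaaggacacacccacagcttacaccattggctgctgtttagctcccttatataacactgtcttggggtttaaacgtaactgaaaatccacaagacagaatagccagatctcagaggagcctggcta
PARP14, chr3:122399436-122399735, plus strand: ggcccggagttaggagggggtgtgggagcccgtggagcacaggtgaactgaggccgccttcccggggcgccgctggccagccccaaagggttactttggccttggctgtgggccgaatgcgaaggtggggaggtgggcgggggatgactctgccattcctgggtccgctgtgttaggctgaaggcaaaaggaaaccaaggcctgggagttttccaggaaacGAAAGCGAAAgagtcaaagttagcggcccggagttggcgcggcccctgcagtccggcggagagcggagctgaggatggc
In IFIT1 the letters begin at −116 and −103 bases from the gene start, and in PARP14 at −29. Over all called genes with a promoter, the letters were in 3.7% of those that rose and 2.45% of those that fell. No interferon protein was measured, and the letters are a description of the sequence.

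Antigen presentation and complement genes rose as well. Of 21 tested genes of MHC class I and complement, 15 rose and 0 fell, with a median of 0.60. HLA-B went from 110, 78.4 and 89.9 cpm to 152, 170 and 174 cpm, and the light chain B2M and the peptide transporter subunit TAP1 rose by 0.50 and 0.64 on the log2 scale. HLA class I genes are near-identical in parts, so reads may be split between HLA-B, HLA-C and HLA-E. The immunoproteasome subunits PSMB8 and PSMB10 rose by 0.27 and 0.78 while most proteasome genes fell. C1R, a protease of the complement cascade, went from 131, 97.4 and 98.3 cpm to 226, 283 and 294 cpm.

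The counts of sterol and ribosomal protein genes depended on D1 replicate 2. Of 22 tested genes of cholesterol synthesis, 4 fell and 0 rose with all flasks, and 17 fell and 0 rose without D1 replicate 2. The share that fell with all flasks, 18.2%, was near the 17.6% of all tested genes. With D1 replicate 1, D1 replicate 3, D20 replicate 1 or D20 replicate 3 left out 1 fell, and 2 without D20 replicate 2. HMGCS1, which makes the HMG-CoA for the pathway, measured 158, 68.2 and 188 cpm at D1 and 93.8, 93.8 and 96.6 cpm at D20, so D1 replicate 2 lay under the D20 flasks and the other D1 flasks above them (log2 fold change −0.54, not called, and −0.88, called, without D1 replicate 2). FDPS, a synthase further along the pathway, measured 250, 129 and 229 cpm against 112, 126 and 122 cpm, again with D1 replicate 2 far under the other D1 flasks. Across the list, the median level of D1 replicate 2 lay at −0.84 log2 units from the mean of D1 replicates 1 and 3, and the D20 flasks lay at −0.66, −0.68 and −0.58.

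Cytosolic ribosomal protein genes behaved in the same way at a smaller scale. Of 77 tested, 2 fell with all flasks and 59 fell without D1 replicate 2, with medians of −0.17 and −0.29, and 0 fell when D1 replicate 1 or 3 or any D20 flask was left out. Without composition factors 11 fell. The list's median level stood at −0.35 in D1 replicate 2 and at −0.31, −0.23 and −0.29 in the D20 flasks. RPS6 measured 1130, 901 and 1183 cpm at D1 and 892, 906 and 868 cpm at D20 and was not called (log2 fold change −0.27, and −0.40, called, without that flask). Many of these genes have processed pseudogenes that can share reads. The mitosis and ribosome biogenesis lists did not share the pattern, since D1 replicate 2 stood at 0.39 and −0.20 there and the D20 flasks at −2.19 or lower and at −0.62 or lower. Nuclear genes of oxidative phosphorylation moved with that flask too, from 6 fallers of 47 with it to 18 without it, and to 2 without D20 replicate 3 and 3 without D1 replicate 3 or D20 replicate 1. What sets D1 replicate 2 apart was not tested.

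**Figure D4:**
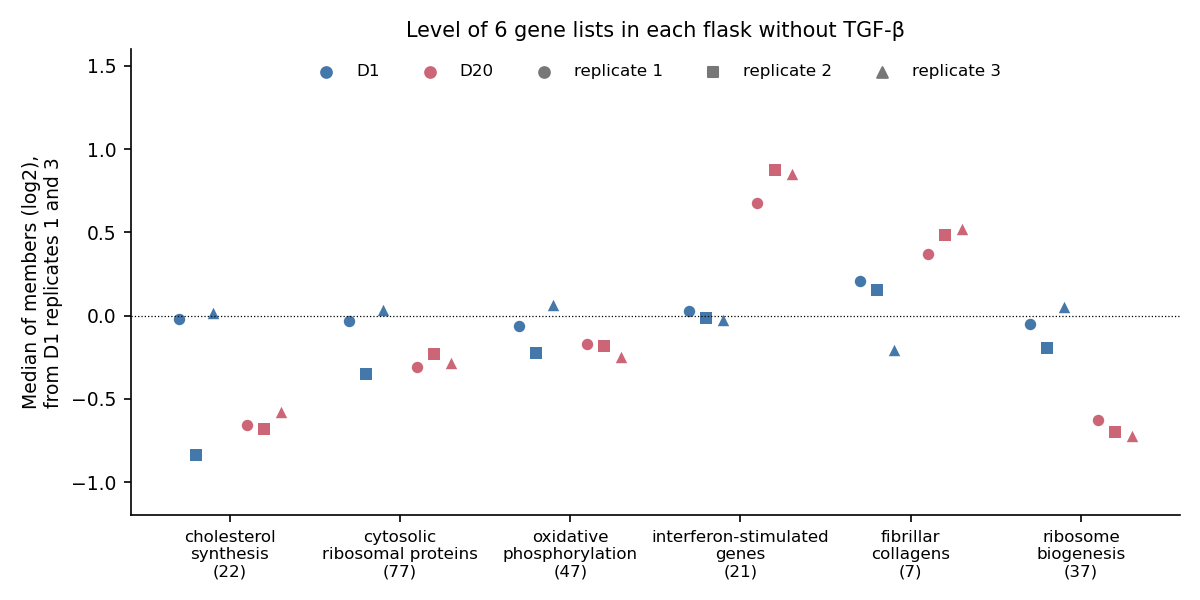
Median level of 6 gene lists in each untreated flask, as log2 difference from the mean of D1 replicates 1 and 3 (vertical axis), with the marker shape giving the replicate number. D1 replicate 2 lies at −0.84 for cholesterol synthesis and −0.35 for cytosolic ribosomal proteins, at the level of the D20 flasks, and at −0.01, 0.15 and −0.20 for interferon-stimulated genes, fibrillar collagens and ribosome biogenesis.

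Of 31 tested genes of glycolysis, hypoxia and glucose sensing, 6 rose (19.4%) and 9 fell (29.0%), against 18.9% and 17.6% of all tested genes. Without D1 replicate 2, 8 rose and 13 fell. ENO1 and LDHA, glycolytic enzymes, changed by −0.79 and −0.65 on the log2 scale, and ARRDC4, an arrestin-like gene induced by glucose, rose from 39.1, 34.9 and 40.8 cpm to 129, 129 and 150 cpm. In the amino acid and tRNA synthetase list, WARS, which interferon also induces, rose from 197, 163 and 165 cpm to 504, 589 and 601 cpm, and the arginine transporter SLC7A1 fell by 1.67. The fatty acid binding proteins FABP5 and FABP3 changed by −2.47 and −1.61. Among 28 tested antioxidant genes 7 rose and 2 fell, a count of risers that was 4 without D20 replicate 2 or 3. The factor NFE2L2 rose from 123, 144 and 108 cpm to 353, 406 and 412 cpm. GPX3 (chr5:150400152-150408549), the secreted glutathione peroxidase, rose from 19, 13.8 and 13.7 cpm to 62.6, 81.6 and 69.3 cpm (log2 fold change 2.20).

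Contractile genes moved by smaller amounts. Of 20 tested contractile and actin genes, 8 rose and 1 fell, with a median of 0.26, or 0.17 without D1 replicate 2. ACTA2, smooth muscle α-actin, measured 229, 125 and 195 cpm at D1 and 277, 288 and 297 cpm at D20 (log2 fold change 0.65, SE 0.17, edgeR adjusted p = 0.00531), with every D20 flask above every D1 flask. The difference was 0.42 without D1 replicate 2, and the call was lost when D1 replicate 3 or any D20 flask was left out. TPM1 went from 346, 357 and 394 cpm to 497, 531 and 533 cpm, and LMOD1, leiomodin, from 49.1, 48.3 and 46.0 cpm to 107, 121 and 126 cpm. SMTN, smoothelin, fell by 1.25, and TAGLN was not called at 0.11. Of 23 tested YAP-TEAD targets 7 rose and 1 fell (0 without D1 replicate 1 or D20 replicate 2 or 3). Among integrins, ITGB8 rose by 1.94 and ITGA7 fell by 1.76 on the log2 scale.

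The same interval was compared in flasks with TGF-β, where 3307 genes (34.8%) changed between D1+ TGF-β and D20+ TGF-β. Of the 1789 genes that rose without TGF-β, 857 also rose with it, 82 fell and 850 were not called. Of the 1668 that fell, 955 also fell, 32 rose and 681 were not called. The difference between the changes, tested as an interaction term, was called in 985 genes (10.4%), with 630 of them also called in untreated flasks. In 333 of these 630 the changes had opposite signs, though the change with TGF-β was itself called in 114 of the 333, in 266 they had the same sign and the untreated change was the larger, and in 31 it was the smaller. The count of 985 moved with single libraries, to 1731 without D1 replicate 2, 561 without D20 replicate 3, 623 without D20 replicate 2, 632 without D1+ TGF-β replicate 1 and 549 without D1+ TGF-β replicate 2. Without D20+ TGF-β replicate 3 it was 1106.

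Division genes fell in both arms and further without TGF-β. The mitosis list had a median of −1.24 with TGF-β against −2.73 without it, and the difference was called in 51 of 68 genes. D20+ TGF-β replicate 3 stood apart. Measured from the mean of untreated D1 replicates 1 and 3, its median for the list lay at −0.72, against −1.31 and −1.49 in D20+ TGF-β replicates 1 and 2. The called differences of the list were not counted without that flask. AURKB changed by −1.62 with TGF-β against −3.33 without, and CDC20 by −1.04 against −3.20. DNA replication genes had closer medians, −0.97 against −1.36, with the difference called in 3 of 41 genes. Contractile genes went opposite ways, with medians of −0.73 with TGF-β and 0.26 without it (0.17 without D1 replicate 2) and the difference called in 16 of 20 genes. On the scale from untreated D1 replicates 1 and 3, the list's median already stood at 0.36, 0.39 and 0.33 in the D1+ TGF-β flasks. In the D20+ TGF-β flasks it lay at −0.34, −0.35 and −0.21. TPM1 changed by −1.82 with TGF-β and ACTA2 by −1.29. TGFB2 changed by 0.35 with TGF-β against 2.51 without (edgeR adjusted p of the difference 0.00062). Cholesterol synthesis had a median of 0.49 with TGF-β and −0.40 without, with 8 of 22 differences called. Without D1 replicate 2 the untreated median was −0.66 and 21 differences were called. The difference was not called for IFIT1, at 2.64 with TGF-β and 2.47 without (edgeR adjusted p of the difference 0.743), for PDGFD, at 4.24 and 3.17 (0.0865), or for BMP4, at 2.01 and 3.27 (0.0147).

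**Figure D5:**
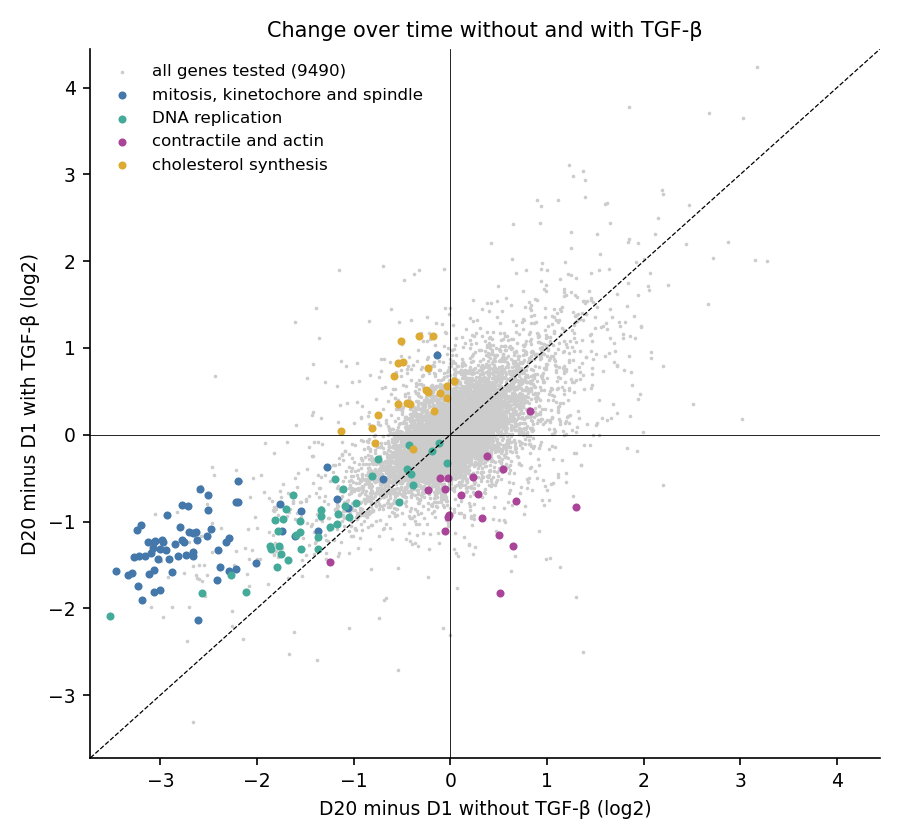
Change over time with TGF-β (D20+ TGF-β minus D1+ TGF-β, log2, vertical axis) against the change without it (D20 minus D1, log2, horizontal axis) for the 9490 tested genes, each a grey point. Genes of 4 lists are coloured and the dashed line marks equal changes. Most mitosis genes lie above the line at the left (medians −2.73 without and −1.24 with TGF-β), and contractile genes lie below it.

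Genes that did not reach the filter of 10 cpm were tested separately where they had at least 1 cpm in 3 libraries. Of 4078 such genes 970 (23.8%) changed, 659 upward (16.2%) and 311 downward (7.63%). VCAM1, an adhesion molecule for leukocytes, had 51, 29 and 21 counts at D1 and 606, 1081 and 1458 counts at D20, a ratio of 30 after scaling for depth (95% counting interval 24.6 to 36.9). BMP5 had 1, 0 and 0 counts at D1 and 56, 67 and 80 counts at D20, a ratio of 196 with an interval of 34.7 to 7761. The sodium channel gene SCN3A went from 3, 6 and 2 counts to 153, 243 and 339 counts. These intervals cover counting error only and not the spread between flasks.

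TMEM176A and TMEM176B, neighbours that overlap on opposite strands, rose 28.8-fold and 25.9-fold together, and their reads may not be separated. The fatty acid transporter SLC27A6 and the monooxygenase FMO2 rose from 3 and 4 counts over the D1 flasks to 108 and 89 counts, ratios of 34.7 (11.6 to 171) and 21.4 (8.08 to 80.4). In the other direction, GJB2, the gap junction protein connexin 26, had 8, 17 and 9 counts at D1 and 0 in every D20 flask, which is at least 11.8-fold lower if 3 counts over the group are taken as the limit. VGF, a secreted neuropeptide precursor, fell from 40, 70 and 39 counts to 2, 3 and 4, and it rose by 3.10 on the log2 scale over the same interval with TGF-β. RPLP0P2, a pseudogene near-identical to a ribosomal protein gene, fell from 33, 32 and 26 counts to 1, 1 and 5 and is uncertain for that reason.

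Markers of other cells were checked against the labels. The fibroblast marker list, 12 genes that were all tested, summed to between 22930 and 28162 cpm at D1 and between 25450 and 27489 cpm at D20. The sums hide changes of single members, since 7 rose (58.3%) and 1 fell (8.33%), against 18.9% and 17.6% of all tested genes. The member that fell was S100A4, by 1.18 on the log2 scale. Epithelial markers summed to between 40.1 and 62.3 cpm at D1 and between 62.5 and 64.9 cpm at D20, with 8 of 12 genes under 1 cpm in all 6 flasks and 3 of them at 0. Of the 3 tested, the simple keratins KRT8 and KRT18, which overlap on opposite strands, rose by 0.83 and 0.55 on the log2 scale, KRT8 from 9.37, 7.11 and 9.02 cpm to 14.5, 16.2 and 14.4 cpm, and KRT19 was not called (−0.76) except without D1 replicate 2, where it was lower at D20. The part of other cells in this rise was not tested. Blood cell markers summed to between 51.3 and 63.0 cpm and between 53.7 and 60.1 cpm, mostly from CD68, with PTPRC and CD3E at or near 0. CD14, outside the main filter, rose from 0.172, 0.531 and 0.34 cpm to 5.43, 5.92 and 6.30 cpm. Adipocyte markers summed to between 67.1 and 95.2 cpm and between 66.0 and 71.8 cpm.

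Endothelial markers summed to between 46.6 and 80.9 cpm at D1 and between 223 and 251 cpm at D20. That rise was TEK, the receptor of ANGPT1, at 48.5, 78.7 and 45.0 cpm against 222, 249 and 243 cpm (log2 fold change 2.05, SE 0.23). The defining endothelial markers PECAM1, CDH5 and ERG were at or near 0 in all 6 flasks, and 6 of the 8 listed genes were under 1 cpm in each. Smooth muscle markers, which share all but SYNPO2 with the contractile list, summed to between 417 and 638 cpm at D1 and between 810 and 845 cpm at D20. Of the 8 listed, 5 were tested, of which 4 rose and 1 was not called, and 1 of the 8 was under 1 cpm in all 6 flasks. MYOCD, a coactivator that defines smooth muscle, went from 0.258, 1.53 and 0.17 cpm to 4.27, 5.08 and 6.49 cpm.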

How the data were processed

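RNA was sequenced from WI-38 flasks without TGF-β at day 1 and day 20 (3 flasks each) and from the matching flasks with TGF-β. Per the submitters' processing notes and the study's methods, reads were checked with FastQC, trimmed with Trimmomatic and mapped to hg19 with Rsubread. The counting program, annotation and use of strand are not given in the sources used here, so genes that overlap on opposite strands may share reads. The authors deposited raw, unfiltered read counts, 25702 genes by 48 lane columns, and also log2 cpm as written by voom for 9412 genes, which served as an alternative. All columns were assigned to samples by their names, and 0 were left unassigned.

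The 4 lanes of each library were summed. The test took genes that reached 10 cpm in 6 or more libraries and was run in R 4.3.3 with edgeR 4.0.16 (TMM factors, quasi-likelihood fit, 1 mean per condition, Benjamini-Hochberg adjustment, threshold 0.01). The common biological coefficient of variation was 9.35%. The spread was estimated over all 12 libraries, and each SE is the absolute log2 fold change divided by the square root of its F value. Genes with at least 1 cpm in 3 libraries were tested in a second fit. The change over time with TGF-β and the difference between the changes came from the first fit. An exact permutation test of 3 flasks against 3 cannot reach a p under 0.1 and was not run. Depth limits precision for the low genes, where counts are given with exact 95% counting intervals and a limit of 3 counts.

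Gene lists of 1432 entries, all matched to the count table, were written from textbook knowledge. The members and lists were chosen with earlier results of these data known, so the fall of the division genes is no independent support for an earlier report of it. Genes named are the 20 largest rises and 12 largest falls without overlap of flasks, the anchors and up to 6 largest called members of each list, the 12 largest called differences from the TGF-β flasks, and the 10 largest rises and 5 largest falls outside the main filter. Some genes the rule picks are not reported here. Other members were named to account for a list, after their values were seen. Coordinates are from GENCODE for GRCh37.

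The alternatives were DESeq2 1.42.0, limma-voom (limma 3.58.1), lanes as samples, limma on the log2 table, RLE factors, no composition factor, other gene filters, only the 6 untreated libraries, counts thinned to the smallest library, the replicate number as a block, each library left out, and a test against a log2 fold change of 1. The code was tested on simulated counts before use.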

Additional observations from a re-analysis of the deposited data

Results flagged for a closer look

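The change over time differed between the flasks without and with TGF-β in 985 genes by the interaction term of the edgeR fit (adjusted p under 0.01). The differences below are the untreated change minus the change with TGF-β, on the log2 scale. The largest was that of A2M, the protease inhibitor α2-macroglobulin, at 3.88, which rose by 1.38 without TGF-β (188, 264 and 112 cpm at D1 against 456, 524 and 484 cpm at D20) and fell by 2.50 with it. ITGB3, integrin β3, differed by 3.17 and GPX3 by 2.79. GBP1, a guanylate-binding protein that interferon induces, differed by 2.67, with changes of 1.14 without TGF-β and −1.53 with it. The complement inhibitor SERPING1 differed by 2.46, TPM1 by 2.33 and PITPNM3 by 2.19. ADAMTS19 differed by 2.83, with a change of 0.19 with TGF-β that was not called.

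In the other direction, FABP3 differed by −2.91, MMP1 by −2.85 and FAM129A by −2.48. MMP1 fell by 1.39 on the log2 scale without TGF-β and rose by 1.47 with it, and FAM129A went from 75.3, 56.2 and 75.7 cpm to 26.5, 26 and 27.8 cpm without TGF-β and rose by 1.11 with it. The interaction tests the time changes of the arms against each other and does not separate a slower change from a different starting level at D1. It also does not separate the cytokine from the single parent flask of each arm at D20.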

How the results depend on the processing

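With each of the 12 libraries left out in turn, called genes numbered 2470 to 4003, with 1280 to 1956 higher and 1190 to 2047 lower at D20, and the difference between the changes without and with TGF-β was called in 549 to 1731 genes. With the 48 lanes as samples, which repeat the same RNA, the counts were 5895 in all, 3141 higher, 2754 lower and 3703 for the difference. Against a log2 fold change of 1, the test called 250 genes, 74 higher and 176 lower. Other tools and scalings called between 2647 (only the 6 untreated libraries) and 4501 genes (no gene filter), DESeq2 3648 and limma-voom 3473, and 0 of the 3457 calls reversed under any setting. Replicate numbers did not pair the samples, with correlations of deviations between same-numbered flasks of −0.22, −0.13 and −0.17, and with the replicate block 3229 genes were called, 3182 of them among the 3457, and 831 for the difference. Of 345 named genes, 259 kept their call under all 24 alternatives. Of 8260 values, 7866 kept their status as called or not called, 301 lost the call and 92 gained one. Another 1 reversed with a call, ID3, at 1.37 without D1 replicate 2 (−0.66 to 1.37 over the left-out libraries, and −0.24 with all). A gene not called in either fit was counted as kept even where its sign changed. ID1, at −0.44 with all, ran from −0.75 to 0.52 over the alternatives. Of 2400 list counts, 246 moved by over 1.5 times. The depth of 10555693 counts or more leaves genes under 1 cpm at about 10 counts, where changes were not detectable unless large.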

Other observations

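Guidance and adhesion genes, which belong to no comparison above, also moved. Of 27 tested semaphorins, plexins and guidance genes, 11 rose and 5 fell, with SEMA6A at 2.20, the netrin NTN4 at 1.54 and SEMA7A at −1.38 on the log2 scale, and the risers numbered 6 without D1 replicate 3 or D20 replicate 3 and 7 without D20 replicate 2. SLITRK6, a neuronal adhesion gene, went from 1.89, 1.73 and 2.47 cpm to 17.3, 18.7 and 17.8 cpm. ITGA8, the integrin subunit of lung fibroblasts, outside the main filter, went from 12.3, 26.4 and 8.26 cpm to 106, 123 and 120 cpm, with no such rise in flasks with TGF-β (−0.01).

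Among long noncoding RNAs, MIAT and MEG3 rose by 1.39 and 0.90 and MIR31HG fell by 1.78 on the log2 scale. The lysosomal protease CTSO went from 21.1, 20.3 and 21.4 cpm to 64.9, 63.3 and 68.6 cpm and GABARAPL1, an autophagy protein, rose by 1.17. The glucocorticoid target FKBP5 fell by 1.38. CEMIP, which degrades hyaluronan, had the widest D1 spread among the largest rises, at 47.2, 174 and 25 cpm against 268, 355 and 456 cpm (log2 fold change 2.12, edgeR adjusted p = 0.00237), and its call was lost with only the 6 untreated libraries, without D1 replicate 1 and without D20 replicate 3.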
